A study of Homo sapiens with 6 samples.

Results

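Metallothioneins and the genes that sense and move zinc were followed in BxPC-3, a long-established line of human pancreatic cancer cells, after treatment with the microRNA miR-4711-5p. The group held 9 genes, picked by symbol out of the 26255 symbols of the expression files. They were the metallothioneins MT1E, MT1F, MT1G, MT1X and MT2A, the metal-sensing transcription factor MTF1, the zinc exporter SLC30A1, and the zinc importers SLC39A4 and SLC39A10. All 9 of 9 reached a mean of 1 FPKM over the 6 libraries and entered the test. FPKM is the number of fragments assigned to a gene scaled by the length of its exons and by the size of the library. RNA-seq libraries came from 3 groups of 2: cells given nothing (parent), cells given a negative control RNA (NC-1), and cells given miR-4711-5p. The 2 RNAs were transfected, and RNA was taken at 36 h. The parent cells were not transfected, so the effect of transfection and that of miR-4711-5p cannot be told apart in the comparison with parent, while NC-1 and miR-4711-5p share the transfection. The labels do not state that the 2 libraries of a group came from separate cultures, so the p-values measure only the spread between these libraries, which may be technical.

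Metallothioneins are small proteins, rich in cysteine, that bind zinc and copper and buffer their free level in the cytosol. When zinc rises, MTF1 binds metal response elements in the promoters of the metallothionein genes and of SLC30A1, and raises their transcription. Transporters of the SLC30 family carry zinc out of the cytosol and those of the SLC39 family carry it in. MT2A is also known to respond to glucocorticoids.

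The sequence of miR-4711-5p is shown first, because part of it matches a stretch that several metallothionein mRNAs have in common. Its mature sequence in the RefSeq table is given with the seed, bases 2 to 8, in capitals.
miR-4711-5p: uGCAUCAGgccagaagacaugag
The 7 bases that pair with this seed read CTGATGC in an mRNA. In the metallothioneins they fall across the stop codon. The following stretches of the 5 coding sequences (GRCh37, GENCODE v44lift37) have in capitals the 7 bases at that place, which begin with the last coding base and hold the stop codon TGA.
MT2A, chr16:56643263-56643269, plus strand: agctgctgcgcCTGATGCtgggacagccc
MT1X, chr16:56717958-56717964, plus strand: agctgctgtgcCTGATGCcaggacagctg
MT1F, chr16:56693073-56693079, plus strand: agctgctgcgaCTGATGCcaggacaacct
MT1E, chr16:56660880-56660886, plus strand: agctgctgtgcCTGATGTgggaacagctc
MT1G, chr16:56700788-56700794, minus strand: agctgctgcgcCTGATGTcgggacagccc
MT2A, MT1X and MT1F held the full match, and MT1E and MT1G each differed from it at 1 base. For MT1E the stretch comes from the transcript whose coding sequence is as short as that of the other metallothioneins. In the 3′ UTR proper, MTF1 carried 2 such matches, printed here with the match in capitals.
MTF1, chr1:38276194-38276200, minus strand: ctgtatttcttCTGATGCcctttggggaa
MTF1, chr1:38280459-38280465, minus strand: tttccatcaatCTGATGCtgcccatcgct
MT1F and MT2A each have an annotated transcript in which the stretch around the stop codon counts as 3′ UTR, and MT1X has one with a further match in its 3′ UTR. Counted in the longest annotated 3′ UTR, 4 of the 9 genes (MT1F, MT1X, MT2A and MTF1) thus had a seed match, beside 18.5% of the 10593 tested genes with a 3′ UTR. SLC30A1, SLC39A10, MT1E and MT1G had none in a 3′ UTR or coding sequence, and SLC39A4 and MTF1 each had 1 match of another type in the coding sequence, TGATGCA, which pairs with bases 2 to 7 of the microRNA and ends in an A. A match of letters is a description and does not show that a site is used.

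The 5 metallothionein genes lie within the metallothionein cluster of chromosome 16, from MT2A (56642496-56643409) through MT1E (56659387-56661024), MT1F (56691643-56694610) and MT1G (56700642-56701977) to MT1X (56716382-56718108). Their coding sequences were 88.5% to 93.5% identical to each other. This bears on the values, since a read of 75 bases may come from more than 1 gene. Of all 75-base windows of the main transcript, 8.18% in MT1X, 6.55% in MT1G and 1.64% in MT1E occurred letter for letter in another gene or pseudogene, and none did in MT2A and MT1F. With up to 2 mismatches allowed, the share was 28.4% in MT2A, nearly all of it shared with the pseudogene MT2P1, and 22.1%, 22%, 17% and 1.42% in MT1X, MT1G, MT1E and MT1F. Expressed genes were among the partners too: 18.5% of MT1G windows came this close to MT2A, and MT2A windows also came close to MT1G and MT1X. A further 27.9% of MT1X windows lay in an overlapping gene on the same strand. How reads that fit several places were counted is not given in the sources used here, so the split between these genes is uncertain. MTF1 (chromosome 1, 38275246-38325264), SLC30A1 (chromosome 1, 211744910-211752503), SLC39A10 (chromosome 2, 196440701-196602426) and SLC39A4 (chromosome 8) are single genes, and at most 0.42% of their windows occurred elsewhere.

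FPKM summed to between 493145 and 550772 per library, and the total was lowest with miR-4711-5p. All 6 pancreatic epithelial markers were present, at 91.6 to 1842 FPKM, and the 8 blood cell markers summed to at most 2.02 FPKM, with TYROBP at 0 throughout. The 8 fibroblast and endothelial markers summed to 2.64 to 3.26 FPKM in parent, 5.36 to 5.98 in NC-1 and 2.70 to 2.89 with miR-4711-5p. CDH5 held the highest single value of these, 3.16 FPKM in an NC-1 library. Its mean was 3.02 FPKM in NC-1, 0.962 in parent and 0.541 with miR-4711-5p. Whether the genes of this list bear on the other NC-1 results was not tested. As the libraries are bulk RNA, fewer cells expressing a gene and less of its RNA per cell cannot be told apart.

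In parent cells the 9 genes spanned a wide range of levels. MT2A was the most abundant, at 1265 FPKM ± 0.58 (SD, n = 2), and ranked 60 of all 26255 symbols. MT1E followed at 300.2 ± 0.65 FPKM and MT1X at 117 ± 10.5 FPKM. SLC39A4, an importer of the plasma membrane that takes up dietary zinc in the intestine, stood at 66.7 ± 8.94 FPKM. Well below these came SLC30A1 at 14.1 ± 1.07 FPKM and MTF1 at 6.47 ± 0.112 FPKM. SLC39A10, MT1G and MT1F closed the order at 3.90 ± 0.0718, 3.85 ± 0.394 and 3.04 ± 1.04 FPKM, and these 3 did not differ beyond their spread.

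**Figure D1:**
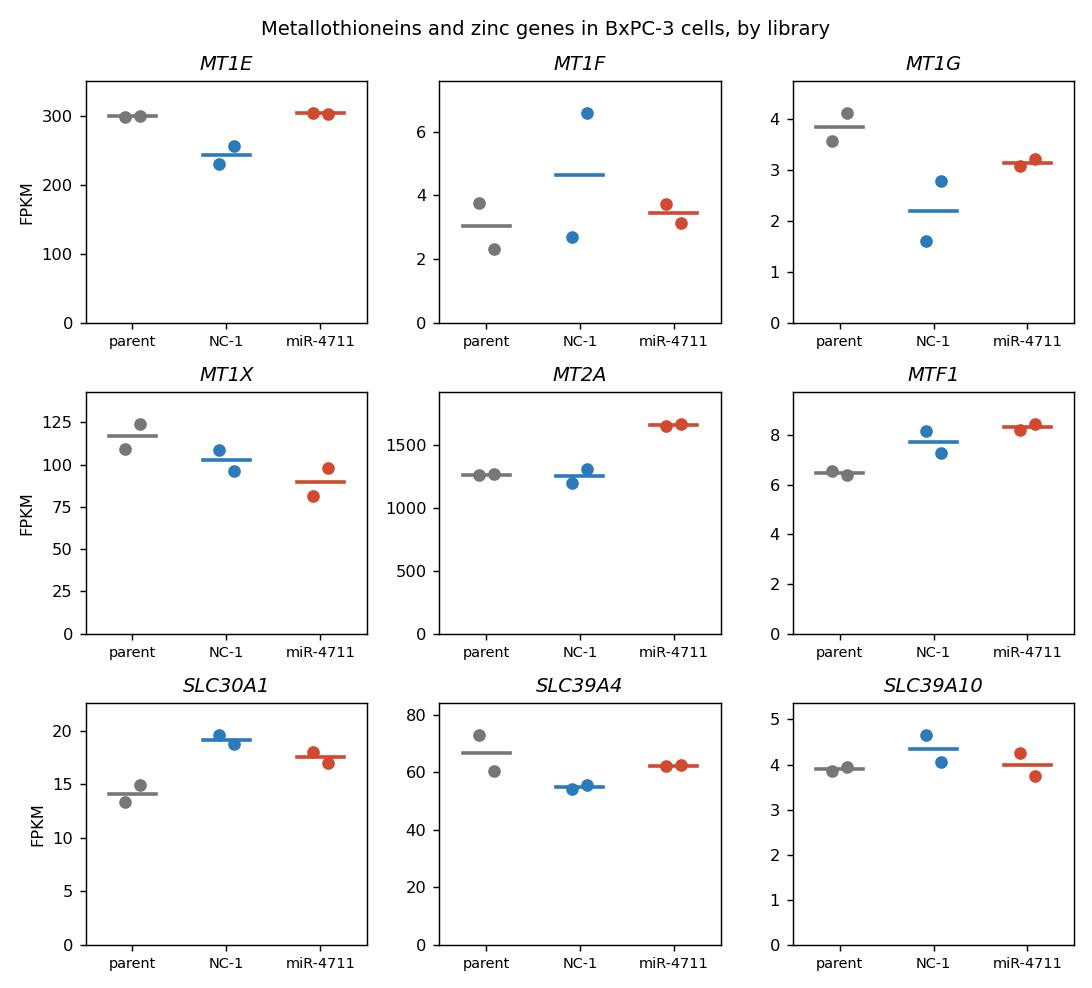
FPKM of the 9 genes in each library (points) with the group mean (line), for parent, NC-1 and miR-4711-5p cells, each panel on its own axis from 0. MT2A stood at 1652 and 1669 FPKM with miR-4711-5p, above all 4 control libraries. MT1X had its lowest group mean with miR-4711-5p, though those libraries overlapped NC-1. MT1E was lowest in NC-1.

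Of the 9 genes, limma (two-sided, Benjamini-Hochberg adjustment over 12040 genes, threshold 0.05) called MT2A, MTF1 and SLC30A1 (3 genes) higher and MT1X (1 gene) lower in miR-4711-5p cells, taking parent as the reference. Over all genes tested, 18.7% were called higher and 24.7% lower in that comparison. Against NC-1 it called 2 higher (MT1E and MT2A) and 0 lower, which stayed at 0 at an unadjusted p under 0.05, beside 18.4% higher and 21.2% lower of all genes. NC-1 itself differed from parent in 4 of the 9, with SLC30A1 higher and MT1E, MT1G and SLC39A4 lower, beside 12.1% higher and 15.1% lower of all genes. The median log2 difference of the 9 genes was 0.03, 0.10 and -0.01 in the same order, beside -0.01, 0.00 and -0.01 over all genes. With libraries rescaled to equal FPKM sums, an alternative added after seeing the data, the split over all genes became 4014 higher and 1775 lower against parent, 2925 and 2083 against NC-1, and 2325 and 1000 between the controls. The 9 genes then gave 4 higher against parent, with MT1E added (0.16, adjusted p = 0.045), and MT1X was no longer called. So many genes were called in these libraries that the counts say little about the 9 as a set, and they did not move in 1 direction. The comparisons share libraries and are given side by side for that reason only. All log2 differences below are on the log2(FPKM + 1) scale, which understates changes of low genes.

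MT2A, the most abundant metallothionein here, gave the clearest difference. It read 1264.7 and 1265.5 FPKM in parent, 1200.2 and 1312 in NC-1, and 1652 and 1669 with miR-4711-5p. Both miR-4711-5p libraries lay above all 4 controls, and the controls overlapped each other. The ratio of means was 1.31 to parent and 1.32 to NC-1. On the log2 scale MT2A was higher by 0.39 ± 0.05 (SE; limma adjusted p = 0.000776) than in parent and by 0.40 ± 0.05 (adjusted p = 0.000764) than in NC-1. Both calls held in all 16 alternative fits, with adjusted p from 0.000171 to 0.0108 against parent and from 0.000307 to 0.0114 against NC-1. NC-1 and parent differed by -0.01, with a 95% interval of -0.13 to 0.10.

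MT1X went the other way. It read 109 and 124 FPKM in parent, 109 and 96.1 in NC-1, and 81.5 and 98.3 with miR-4711-5p. The miR-4711-5p libraries lay below parent but overlapped NC-1. MT1X fell to 0.769 of its parent level, a log2 difference of -0.38 ± 0.10 (limma adjusted p = 0.0238). That call was lost without parent 2 (-0.29, adjusted p = 0.139) or without miR-4711-5p 1 (-0.24, adjusted p = 0.141), and also with no filter on low values (adjusted p = 0.0768) and with libraries rescaled to equal FPKM sums (-0.24, adjusted p = 0.0959). Against NC-1 the difference was -0.19, with an interval of -0.44 to 0.06 and an adjusted p of 0.188.

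MT1E, the second metallothionein by level, separated the 2 controls. Its libraries read 299.7 and 300.6 FPKM in parent, 231 and 257 in NC-1, and 306 and 303 with miR-4711-5p. NC-1 lay below the 4 others, which were within a few FPKM of each other. It was higher with miR-4711-5p than in NC-1 by 0.32 ± 0.05 on the log2 scale (limma adjusted p = 0.00338), a ratio of 1.25 that was called in all 16 alternatives. NC-1 was lower than parent by a log2 difference of -0.30 ± 0.05 (adjusted p = 0.00855), a call that was lost without parent 1 (adjusted p = 0.0528). Between miR-4711-5p and parent the difference was 0.02, with an interval of -0.11 to 0.15.

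MT1F and MT1G were expressed at a few FPKM, where a handful of reads moves a value. For MT1G, reads of the far more abundant MT2A may also enter the value, as 18.5% of its windows were within 2 mismatches of MT2A. MT1G read 3.57 and 4.13 FPKM in parent, 1.60 and 2.78 in NC-1, and 3.07 and 3.22 with miR-4711-5p. Its NC-1 libraries lay lowest, at 0.57 of parent (log2 difference -0.63 ± 0.17, limma adjusted p = 0.0343), but the call was lost in 8 of 15 alternatives, those without either parent library, without NC-1 1 or without either miR-4711-5p library among them, with adjusted p up to 0.147. MT1F read 3.77 and 2.3 FPKM in parent, 2.68 and 6.61 in NC-1, and 3.74 and 3.13 with miR-4711-5p. All 3 groups of MT1F overlapped, and no comparison was called (adjusted p = 0.725, 0.558 and 0.375 for miR-4711-5p against parent, against NC-1, and NC-1 against parent). Single libraries decided these low values: without NC-1 1, MT1F passed the threshold against NC-1 (-0.78, adjusted p = 0.0456) and between the controls (0.94, adjusted p = 0.0458), and without NC-1 2, MT1G passed it against NC-1 (0.67, adjusted p = 0.00898).

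Summed over every metallothionein gene in the files, FPKM came to 1685 and 1702 in parent, 1547 and 1680 in NC-1, and 2050 and 2080 with miR-4711-5p. The group means were 1694 ± 12.1, 1613 ± 94.2 and 2065 ± 21.0 (SD, n = 2), so the sum with miR-4711-5p was 1.22 times that of parent. An exact permutation test of 2 against 2 libraries cannot give a p below 0.333, and no p is given for the sum. MT2A alone made up 75% and 74.3% of the sum in parent, 77.6% and 78.1% in NC-1, and 80.6% and 80.3% with miR-4711-5p. MT1X made up 6.49% and 7.30%, 7.05% and 5.72%, and 3.98% and 4.73% in the same order. MT1E made up 17.8% and 17.7% in parent, and was near the miR-4711-5p values of 14.9% and 14.6% already in NC-1, at 14.9% and 15.3%. The ratio of MT2A to MT1X was 11.6 and 10.2 in parent, 11 and 13.7 in NC-1, and 20.3 and 17 with miR-4711-5p. This ratio does not depend on how a library is scaled, and its miR-4711-5p values did not overlap those of the controls. The ratio of MT2A to MT1E was 4.22 and 4.21 in parent, 5.20 and 5.11 in NC-1, and 5.40 and 5.51 with miR-4711-5p.

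**Figure D2:**
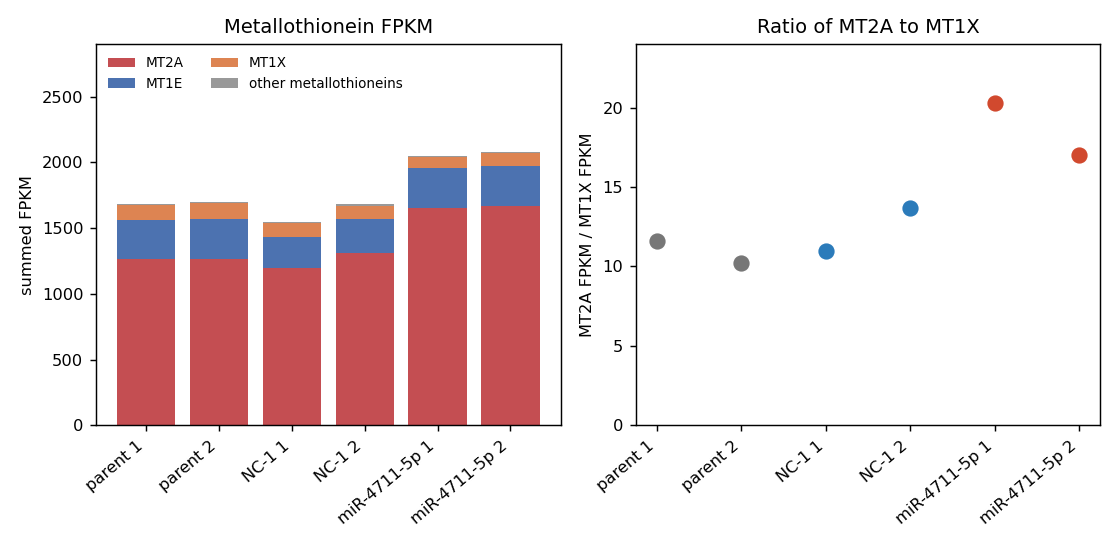
Left, metallothionein FPKM summed per library and split by gene (bars from 0). Right, the ratio of MT2A to MT1X FPKM in each library. The sum was 2050 and 2080 FPKM with miR-4711-5p and at most 1702 in the controls, and the ratio was 17 and 20.3 with miR-4711-5p and at most 13.7 in the controls.

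Of the 13 other metallothionein genes looked up, 11 were in the files and 6 of those were at 0 in all libraries. MT1M alone reached the filter, at 2.53 and 3.76 FPKM in parent, 2.02 and 4.42 in NC-1, and 2.58 and 1.67 with miR-4711-5p, and it was not called in any comparison. MT3 and MT4, the metallothioneins known from brain and stratified epithelium, were among the genes at 0.

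MTF1 encodes the zinc sensor that drives the metallothionein promoters. Its FPKM was 6.55 and 6.39 in parent, 8.15 and 7.27 in NC-1, and 8.21 and 8.45 with miR-4711-5p. The miR-4711-5p libraries lay above all 4 controls, by little over the higher NC-1 library. MTF1 was 1.29 times its parent level (log2 difference 0.32 ± 0.07, limma adjusted p = 0.00948), and this call was lost without miR-4711-5p 2 (adjusted p = 0.0625). Against NC-1 the difference was 0.10, with an interval of -0.06 to 0.27 and an adjusted p of 0.292. NC-1 against parent gave 0.22 (adjusted p = 0.056), which passed the threshold in 3 of 16 alternatives, that without NC-1 2 among them (adjusted p = 0.0489). Whether the 2 seed matches of its 3′ UTR printed above are used was not tested.

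The letters of the metal response element, TGCACNC or TGCGCNC, were searched on both strands in the 250 bases before the start site of each gene in the RefSeq promoter table (GRCh38.p14), which held 5 of the 9. The promoters of MT2A, MT1X and SLC30A1 are printed for the following reasons. The first 2 were called in opposite directions against parent, though MT1X was not called against NC-1 (limma adjusted p = 0.188). The third is the classical zinc-responsive exporter. Matches are in capitals.
MT2A, chr16:56608334-56608583, plus strand: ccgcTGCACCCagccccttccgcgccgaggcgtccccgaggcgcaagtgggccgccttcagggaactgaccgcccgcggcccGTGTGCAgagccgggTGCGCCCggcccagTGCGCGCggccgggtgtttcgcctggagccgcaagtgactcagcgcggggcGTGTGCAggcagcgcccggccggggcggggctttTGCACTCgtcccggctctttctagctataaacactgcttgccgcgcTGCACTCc
MT1X, chr16:56682220-56682469, plus strand: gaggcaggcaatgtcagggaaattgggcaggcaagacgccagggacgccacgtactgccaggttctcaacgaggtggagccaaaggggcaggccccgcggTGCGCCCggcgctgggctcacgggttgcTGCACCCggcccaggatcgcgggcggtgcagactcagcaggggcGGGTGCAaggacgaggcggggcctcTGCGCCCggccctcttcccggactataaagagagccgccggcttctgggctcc
SLC30A1, chr1:211579162-211579411, minus strand: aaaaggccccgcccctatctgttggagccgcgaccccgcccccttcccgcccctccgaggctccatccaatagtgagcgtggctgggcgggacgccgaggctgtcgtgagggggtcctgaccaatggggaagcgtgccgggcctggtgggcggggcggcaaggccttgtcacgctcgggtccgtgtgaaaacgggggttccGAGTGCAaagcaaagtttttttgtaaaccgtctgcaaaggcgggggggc
MT2A had 7 matches, at -246, -168, -153, -139, -88, -54 and -8 from the start site, and MT1X had 4, at -150, -122, -78 and -53. SLC30A1 had 1, at -49, and MTF1 and SLC39A10 had none in this window. At least 1 match was present in 24.7% of all 27305 promoters and in 33.7% of the 8975 promoters of tested genes, at least 4 in 0.366% and 0.479%, and at least 7 in 0.033% and 0.0334%. The same search of other metallothionein promoters in the table gave 8 matches for MT1H, which was at 0 to 0.705 FPKM in the 6 libraries, and 3 each for MT1B and MT4, which were at 0 in all of them.

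SLC30A1, also called ZnT1, is the exporter that carries zinc across the plasma membrane and out of the cell. It read 13.3 and 14.9 FPKM in parent, 19.6 and 18.7 in NC-1, and 18 and 17 with miR-4711-5p. The 4 transfected libraries lay above both parent libraries, and NC-1 lay above miR-4711-5p. NC-1 was 1.36 times parent (log2 difference 0.42 ± 0.07, limma adjusted p = 0.00616), which held in all 16 alternatives. With miR-4711-5p the level was 1.24 times parent (0.30 ± 0.07, adjusted p = 0.0112), a call lost without parent 1 (adjusted p = 0.0579) or without miR-4711-5p 1 (adjusted p = 0.082). Against NC-1 the difference was -0.12, with an interval of -0.28 to 0.04.

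SLC39A4, also called ZIP4, was the more abundant of the 2 importers. Its libraries gave 73.0 and 60.3 FPKM in parent, 54.1 and 55.4 in NC-1, and 62.1 and 62.5 with miR-4711-5p. The parent libraries differed from each other by more than the other groups did from parent 2. NC-1 was lower than parent (log2 difference -0.27 ± 0.08, limma adjusted p = 0.0469), but 11 of 16 alternatives lost this call, with adjusted p up to 0.163, and without parent 1 the difference was -0.14. The miR-4711-5p comparisons gave -0.09 against parent (interval -0.28 to 0.10) and 0.18 against NC-1 (interval -0.01 to 0.38), neither of them called, and the first of these turned to 0.05 without parent 1 and to -0.22 (adjusted p = 0.0206) without parent 2. The difference from NC-1 passed the threshold without parent 1 (adjusted p = 0.0175), without parent 2 (adjusted p = 0.0173), with the 2 groups alone in the fit (adjusted p = 0.0169) and with equal FPKM sums (adjusted p = 0.0446). SLC39A10, also called ZIP10, read 3.85 and 3.95 FPKM in parent, 4.66 and 4.05 in NC-1, and 4.26 and 3.74 with miR-4711-5p. Its groups lay within 1 FPKM of each other, and the adjusted p was 0.845, 0.42 and 0.343 for miR-4711-5p against parent, against NC-1, and NC-1 against parent.

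**Figure D3:**
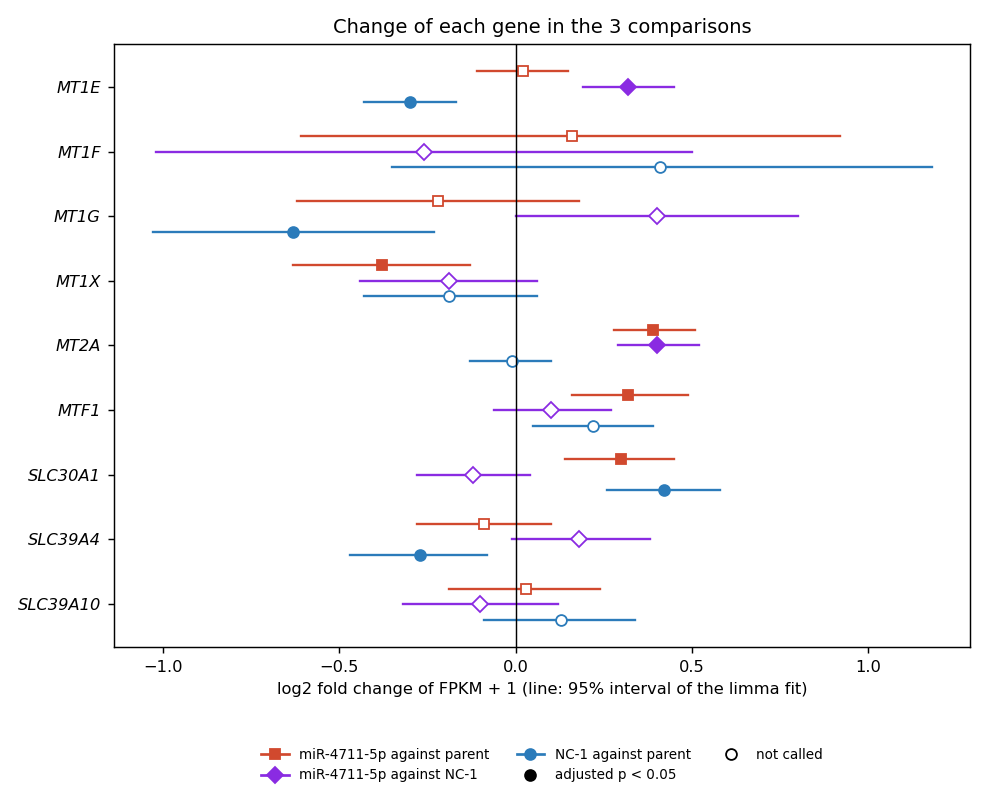
log2 difference of each of the 9 genes in the 3 comparisons, with the 95% interval of the limma fit; filled symbols had an adjusted p below 0.05. MT2A stood at 0.39 and 0.40 in both miR-4711-5p comparisons and at -0.01 between the controls, whereas SLC30A1 and MT1E differed between the controls, at 0.42 and -0.30.

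The other transporters of both families were read from the same fit. Over all genes tested, 18.7% were called higher and 24.7% lower against parent, and 18.4% and 21.2% against NC-1. Between the controls these shares were 12.1% and 15.1%. Of the 9 other SLC30 exporter genes 4 were tested, and 1 was called higher and 0 lower in each of the 3 comparisons, with 0 lower also at an unadjusted p under 0.05. The gene was SLC30A7, which loads zinc into the Golgi, against parent and between the controls, and SLC30A5 against NC-1. Both names fall outside the rule for named genes and were chosen after their values were seen. These counts fell to 0 without parent 1 or miR-4711-5p 1 against parent, without any library but NC-1 1 against NC-1, and without parent 1 or NC-1 2 between the controls. Both SLC30A7 calls were also lost with no filter on low values (limma adjusted p = 0.0526 and 0.0535). The SLC30A5 call was also lost with no filter, no trend, the 2 groups alone or the replicate block (adjusted p = 0.0536 to 0.0667). Of the 12 other SLC39 importer genes 9 were tested. With miR-4711-5p 1 was called higher and 1 lower against parent, and 3 were called higher and 0 lower against NC-1, where 1 was lower at an unadjusted p under 0.05. Between NC-1 and parent 4 were lower and 0 higher, the latter also at an unadjusted p under 0.05, and 2 were lower without parent 1 or without NC-1 1. With equal FPKM sums the calls against parent became 5 higher and 1 lower, in a setting that moved the calls over all genes towards higher as well.

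SLC39A11, a zinc importer of intracellular membranes, read 6.45 and 5.51 FPKM in parent, 3.30 and 4.33 in NC-1, and 2.51 and 3 with miR-4711-5p. limma put miR-4711-5p below parent by a log2 difference of -0.89 ± 0.13 (adjusted p = 0.00155), and the difference from NC-1 was -0.35 (adjusted p = 0.0655), and NC-1 was lower than parent as well (-0.54, adjusted p = 0.0226). The last call was lost without parent 1 (adjusted p = 0.126) or NC-1 1 (adjusted p = 0.103), and the difference from NC-1 passed the threshold without NC-1 1 (-0.51, adjusted p = 0.0341). SLC39A14, an importer of zinc, iron and manganese, read 20.6 and 21.0 FPKM in parent, 15.3 and 16.8 in NC-1, and 24.9 and 23.5 with miR-4711-5p. It was highest with miR-4711-5p, by 0.21 ± 0.06 against parent (limma adjusted p = 0.0305) and by 0.56 ± 0.06 against NC-1 (adjusted p = 0.000493). NC-1 itself was lower than parent, by a log2 difference of -0.36 ± 0.06 (adjusted p = 0.00741). The call of miR-4711-5p against parent was lost when any 1 of the parent or miR-4711-5p libraries was left out, and with no filter. SLC39A6, chosen after its values were seen because its protein pairs with that of SLC39A10, read 27.6 and 29.6 FPKM in parent, 16.4 and 14.9 in NC-1, and 30.0 and 31.4 with miR-4711-5p. It was low in NC-1 alone, by -0.83 ± 0.06 against parent (adjusted p = 0.000569), while miR-4711-5p and parent differed by 0.10 (adjusted p = 0.254), or by 0.23 (adjusted p = 0.0231) with equal FPKM sums.

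**Figure D4:**
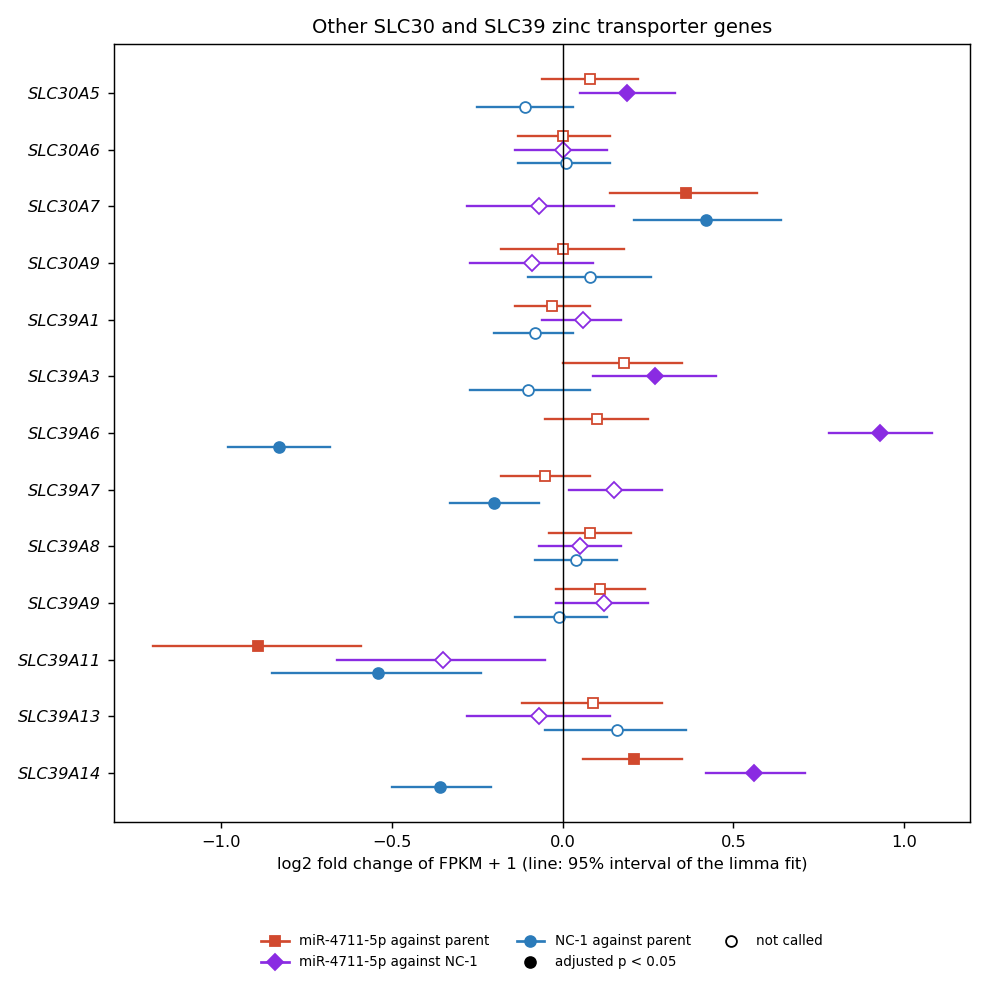
log2 difference of the 13 other SLC30 and SLC39 genes tested, in the 3 comparisons, with the 95% interval of the limma fit; filled symbols had an adjusted p below 0.05. SLC39A6 differed between NC-1 and the other groups (-0.83 and 0.93), SLC39A11 was lower against parent (-0.89), and SLC39A14 was higher with miR-4711-5p (0.21 and 0.56).

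Metallothioneins also bind copper, and 10 of 11 genes of copper handling were tested. Relative to parent, miR-4711-5p cells had 1 of them higher and 2 lower, beside 18.7% and 24.7% of all genes tested. Relative to NC-1 they had 2 higher and 1 lower, beside 18.4% and 21.2% of all genes. Equal FPKM sums gave 4 higher and 1 lower relative to parent, in a setting that moved the calls over all genes towards higher as well. SLC31A1, the copper importer CTR1, read 15.6 and 14.9 FPKM in parent, 15.1 and 13.9 in NC-1, and 11.2 and 12.1 with miR-4711-5p. It was lower than both controls, by a log2 difference of -0.36 ± 0.07 (limma adjusted p = 0.00417) and -0.29 ± 0.07 (adjusted p = 0.0121). The second call was lost without NC-1 1 (adjusted p = 0.0701) or without miR-4711-5p 1 (adjusted p = 0.0866). SLC31A2, a related copper transporter, read 4.74 and 4.86 FPKM in parent, 6.98 and 6.51 in NC-1, and 7.5 and 7.32 with miR-4711-5p. It was higher than parent by 0.54 ± 0.07 (adjusted p = 0.000738), as NC-1 was by 0.42 (adjusted p = 0.00569), and miR-4711-5p against NC-1 gave 0.12 (adjusted p = 0.189).

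Of 10 metal and oxidative stress genes, miR-4711-5p cells had 2 higher and 5 lower relative to parent, where 18.7% of all genes were called higher and 24.7% lower. Relative to NC-1 they had 1 higher and 6 lower, beside 18.4% and 21.2% of all genes, while NC-1 itself had 6 higher and 2 lower relative to parent, beside 12.1% and 15.1%. The lower calls against NC-1 thus include genes that were higher in NC-1 than in parent, such as TXNRD1 and SRXN1, named here after their values were seen, which differed between miR-4711-5p and parent by 0.00 and -0.06 (adjusted p = 0.977 and 0.356). HMOX1, which encodes heme oxygenase and responds to metals, read 4.37 and 3.72 FPKM in parent, 3.81 and 4.55 in NC-1, and 8.01 and 8.50 with miR-4711-5p, higher by 0.88 ± 0.10 than in parent (limma adjusted p = 0.00053). DNAJB1, a heat shock co-chaperone, and SLC7A11, the cystine importer that feeds glutathione synthesis, were lower than in parent by log2 differences of -0.77 (adjusted p = 2.18e-05) and -0.71 (adjusted p = 5.88e-05). Against NC-1 the differences of HMOX1, DNAJB1 and SLC7A11 were 0.84, -0.44 and -1.43 (limma adjusted p = 0.000722, 0.000303 and 5.74e-06). DNAJB1 was already lower in NC-1 than in parent, by -0.32 (adjusted p = 0.00331). SLC7A11 was higher in NC-1 than in parent by 0.71 (adjusted p = 0.000432). HMOX1 differed between the controls by 0.04 (adjusted p = 0.815).

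Of 9 genes on a glucocorticoid-response list 7 were tested, and both comparisons of miR-4711-5p called 5 higher and 1 lower. The 5 include NR3C1, the gene of the receptor itself. The median log2 difference was 0.49 against parent and 0.43 against NC-1, and the shares of all genes are those just given. TSC22D3, also on the list and named after its values were seen, was not called, at -0.10 and 0.01 (limma adjusted p = 0.205 and 0.915). NR3C1, the glucocorticoid receptor, read 10.1 and 10.6 FPKM in parent, 10.6 and 11.1 in NC-1, and 13.5 and 13.9 with miR-4711-5p. Like MT2A, it lay above all 4 controls, and limma gave 0.37 ± 0.06 relative to parent (adjusted p = 0.00202) and 0.31 ± 0.06 relative to NC-1 (adjusted p = 0.00487). SGK1, a kinase gene, was higher by 1.08, ERRFI1, an inhibitor of EGFR, by 0.92, and DUSP1, a phosphatase of MAP kinases, by 0.71 on the log2 scale against parent (adjusted p = 2.74e-05, 2.91e-05 and 0.000711). Against NC-1 the differences of SGK1, ERRFI1 and DUSP1 were 1.24, 0.43 and 0.65 (limma adjusted p = 1.86e-05, 0.00109 and 0.00117). ERRFI1 was already higher in NC-1 than in parent, by 0.49 (adjusted p = 0.00204). SGK1 and DUSP1 differed between the controls by -0.15 and 0.06, neither of them called. The gene called lower was FKBP5, itself a standard target of the receptor and named here after its values were seen, at -0.59 against parent (adjusted p = 0.000834) and -0.31 against NC-1 (adjusted p = 0.0144). The call against NC-1 was lost without NC-1 1 (adjusted p = 0.0756) or without miR-4711-5p 1 or 2 (adjusted p = 0.058 and 0.0848).

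Of the 6633 genes that averaged 10 FPKM or more, the 3 whose profile over the 6 libraries was closest to that of MT2A were RUNX1, HIST1H2BK and RNF139, at a root mean square distance of 0.026, 0.0306 and 0.0334 on the centred log2 scale. For SLC39A10 they were EID1, RAP1B and PSME4, at 0.0171, 0.0237 and 0.0313. With 6 libraries and this many genes, close profiles are to be found for any gene, and the names are given as a description.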

How the data were processed

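Poly(A) RNA of 6 BxPC-3 libraries, 2 each of parent, NC-1 and miR-4711-5p, was read in single-end mode at 75 bases with a strand-specific kit. The deposited values are FPKM per gene symbol, which the authors computed on hg19 and had already normalized for gene length and library size. The submitters' processing notes list TopHat2 2.1.1, Bowtie2 2.3.5.1, SAMtools 1.2, Cuffdiff and Cufflinks 2.2.1. The annotation, the strand option and the treatment of reads with several places are not given in the sources used here. Since the unit is not a count, count models were left aside, and depth in reads is unknown. From the most common ratio of low values, relative depth was 0.751 to 1.206 of parent 1.

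The 12040 genes averaging 1 FPKM or more over the 6 libraries were tested on log2(FPKM + 1) with limma 3.58.1 in R 4.3.3 (lmFit, contrasts.fit, eBayes with a trend), all 3 groups in 1 fit with 3 residual and 4.15 prior degrees of freedom. Adjusted p-values are Benjamini-Hochberg over all genes tested. The fit was also run on simulated data with means and spread taken from these libraries, and the outcome is not given here. Ratios are of mean FPKM without a pseudocount. Tables were handled with Python 3.11.15, numpy 2.4.6, pandas 2.3.3 and Biopython 1.88. Symbols were matched to GENCODE v44lift37 (GRCh37, the build of hg19; 9 of 9 found). Promoter and microRNA sequences are from RefSeq (GRCh38.p14).

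The genes and lists were chosen with earlier results of these data known. Named genes were the 9, NR3C1, those of the other metallothionein, SLC30, SLC39 and copper lists called against parent whose 2 miR-4711-5p values lay outside those of the 4 controls, the 3 largest changes of the glucocorticoid and of the stress list called against both controls, and the 3 closest profiles to MT2A and SLC39A10. Alternatives changed the pseudocount, the filter, the scaling, the trend, the groups in the fit, a replicate block, a fold limit, and each library left out in turn. Rescaling over the genes tested and to equal FPKM sums were added after seeing the data. Some alternatives could change little. Median-of-ratios factors over all genes were 1.006 to 1.007 in every library. Leaving out a library of the group not compared alters the estimate of spread but not the difference.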

Additional observations from a re-analysis of the deposited data

How the results depend on the processing

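MT2A in both miR-4711-5p comparisons, MT1E against NC-1 and SLC30A1 in NC-1 against parent kept direction and call in all 16 alternative fits each. The fold limit given below is not among these fits. Counted over the 9 genes and the fits alone, a call was lost 7 times against parent, 0 times against NC-1 and 20 times between the controls. With 2 libraries a group and FPKM only, small differences at the level of MT1F and MT1G were not detectable.

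Of the 9 genes, 4, 2 and 4 were called for miR-4711-5p against parent, against NC-1, and NC-1 against parent, and of all genes 5230, 4763 and 3279. A change of at least 1.5-fold as well left 0, 0 and 1 (MT1G) of the 9 and 1486, 1293 and 499 of all genes. The calls of MT2A (ratios 1.31 and 1.32), of MT1E against NC-1 (1.25) and of SLC30A1 between the controls (1.36) thus did not meet this limit. Leaving out 1 library gave 2 to 4, 2 to 3 and 1 to 4 of the 9, and 3246 to 5185, 2887 to 4679 and 1457 to 2385 of all genes. The low counts came without miR-4711-5p 1 in both of its comparisons and without parent 1 between the controls. Between NC-1 and parent, no filter, no trend and only the 2 groups compared each left 2 of the 9 (MT1E and SLC30A1), and no filter left 2165 of all genes.

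The replicate numbers did not pair the libraries, whose deviations correlated at 0.061, 0.00301 and -0.00892 between groups. With the replicate block 4, 2 and 3 of the 9 were called, the lost one being SLC39A4 (adjusted p = 0.0562), and 4983, 4564 and 2864 of all genes.

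Rescaling to equal FPKM sums turned the split of higher to lower genes from 2255 to 2975 into 4014 to 1775 against parent, from 2214 to 2549 into 2925 to 2083 against NC-1, and from 1456 to 1823 into 2325 to 1000 between the controls, and moved the median of all genes to 0.108, 0.053 and 0.065. The 9 genes then gave 4 higher (MT1E, MT2A, MTF1 and SLC30A1) and 0 lower against parent, and the mean metallothionein sums were 1608, 1625 and 2160 FPKM in parent, NC-1 and miR-4711-5p. Median-of-ratios factors over the genes tested gave 2447 to 2771 against parent and 1575 to 1619 between the controls.

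Differences that changed sign were small or of low genes. With 1 library left out in turn, those against parent ran from -0.11 (without parent 2) to 0.42 (without parent 1) for MT1F, from -0.22 (without parent 2) to 0.05 (without parent 1) for SLC39A4 and from -0.05 (without miR-4711-5p 1) to 0.10 (without miR-4711-5p 2) for SLC39A10. Against NC-1, MT1F ran from -0.78 (without NC-1 1) to 0.26 (without NC-1 2). Between the controls, MT1F ran from -0.11 (without NC-1 2) to 0.94 (without NC-1 1) and MT2A from -0.08 (without NC-1 2) to 0.05 (without NC-1 1). With equal FPKM sums SLC39A4 was 0.05 against parent and MT2A 0.07 between the controls, and with factors over the genes tested the latter was 0.0028. The cause was not tested.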
